A study of Mus musculus with 6 samples.

Results

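Nrp1, Izumo1r and Gpr83, 3 of the 14098 genes of the UMI count table, encode surface proteins of regulatory T (Treg) cells, which express Foxp3 and hold immune responses in check. They were chosen by name as surface genes of this cell type and not by their values. The cells came from 6 samples of spleen from tamoxifen-treated C57BL/6 mice aged 18 to 21 weeks. In the cKO group (3 samples) Bach2 was flanked by loxP sites and the Foxp3 locus carried an EGFP-Cre-ERT2 allele, Bach2fl/fl Foxp3EGFP-Cre-ERT2. The WT group (3 samples) had Bach2+/+ with the same Foxp3EGFP-Cre-ERT2 allele and the same tamoxifen, so Foxp3 drove EGFP and the inducible Cre in both. Cells were sorted for EGFP and profiled with a droplet-based 3′ single-cell RNA assay that counts unique molecular identifiers (UMIs), tags that mark single captured RNA molecules.

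The count table held 10685 cells in 6 sets, told apart by a suffix of the cell barcode, each of 1641 to 1902 cells. Cells held 2000 to 2229 UMIs in the median of a set. No name tied a set to a sample, so cKO and WT samples were not compared. Every value below is given over all sets or per set, the sets are no replicates of a group, and intervals are at 95% and cover counting error only. Of all cells, 10263 were kept as Treg cells because they had few or no markers of B, myeloid, CD8 or NK and erythroid cells. A UMI of Ikzf2, which encodes the Treg factor Helios, was present in 59.5% of those thinned to 1000 UMIs (exact binomial interval 58.5 to 60.5%), and Foxp3 lay at 19.5 to 23.6 UMIs per 1000000 (CPM) over the sets. Bach2, the targeted gene, lay between 18.5 and 36.6 CPM over the sets. These 3′ counts did not check the genotype labels, because the stretch of Bach2 between the loxP sites is not stated in the labels.

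Neuropilin-1, the product of Nrp1, is a single-pass coreceptor for class 3 semaphorins and vascular endothelial growth factor, and on Treg cells it also binds semaphorin 4A. Together with Helios it is widely used as a marker of mouse Treg cells that arose in the thymus. Izumo1r encodes folate receptor 4 (FR4, also called Juno), a lipid-anchored member of the folate receptor family that is abundant on Treg cells, marks anergic CD4 T cells together with CD73, and on the egg binds the sperm protein Izumo1. Gpr83 encodes a G protein-coupled receptor that is induced by Foxp3, and the neuropeptide PEN is among its reported ligands.

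Nrp1 (ENSMUSG00000025810.9, protein coding) lies at chr8:128358604-128503363 on the plus strand of mm10. Izumo1r (ENSMUSG00000031933.17, protein coding; chr9:14885814-14903949, minus strand) and Gpr83 (ENSMUSG00000031932.14, protein coding; chr9:14860210-14870789, plus strand) are direct neighbours. Their transcripts run towards each other, with 15024 bp and 0 annotated genes between them, and their start sites are 43.7 kb apart. The promoter windows below, from 250 bases before to 50 bases after the RefSeq start (GRCm38.p6), are shown because Gpr83 was lower in effector cells and its neighbour Izumo1r was not called there. They cover chr8:128358823-128359122 on the plus strand for Nrp1, chr9:14903718-14904017 on the minus strand for Izumo1r and chr9:14859960-14860259 on the plus strand for Gpr83. Each is written 5′ to 3′ on the gene's own strand, and capitals mark matches to the motifs searched.
Nrp1: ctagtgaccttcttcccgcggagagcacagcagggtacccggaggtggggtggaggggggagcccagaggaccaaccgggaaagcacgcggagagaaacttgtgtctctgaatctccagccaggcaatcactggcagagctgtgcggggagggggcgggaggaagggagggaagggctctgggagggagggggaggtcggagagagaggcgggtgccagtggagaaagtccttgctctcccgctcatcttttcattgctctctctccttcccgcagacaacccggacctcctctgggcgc
Izumo1r: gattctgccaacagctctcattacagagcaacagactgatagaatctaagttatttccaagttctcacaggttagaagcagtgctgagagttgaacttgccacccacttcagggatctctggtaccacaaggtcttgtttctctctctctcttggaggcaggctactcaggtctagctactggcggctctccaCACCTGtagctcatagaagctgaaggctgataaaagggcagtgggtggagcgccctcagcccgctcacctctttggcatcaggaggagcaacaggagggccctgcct
Gpr83: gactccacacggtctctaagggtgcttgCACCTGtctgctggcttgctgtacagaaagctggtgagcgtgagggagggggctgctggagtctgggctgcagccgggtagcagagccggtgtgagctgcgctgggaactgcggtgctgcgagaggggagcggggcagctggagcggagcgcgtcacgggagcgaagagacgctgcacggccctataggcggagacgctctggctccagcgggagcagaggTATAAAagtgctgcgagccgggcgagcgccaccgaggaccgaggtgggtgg
The Gpr83 window was the richest in CpG of the 3, with 24 CpG and 67% G and C, against 14 CpG and 64% in the Nrp1 window and 3 CpG and 52.3% in the Izumo1r window. Of 7 motifs searched on both strands, the E-box CAGGTG, on the other strand CACCTG, was found once in the Izumo1r window, 57 bases before the start, and once in the Gpr83 window, 222 bases before it. It was present in 20.2% of 32851 RefSeq promoter windows of this length. TATAAA began 1 base before the RefSeq start of Gpr83 and was found in 13.6% of all windows. None of the 3 windows held TGTTTAC (forkhead, 3.65% of windows), TGANTCA (AP-1, 7.81%), TGTGGTT (Runx, 5.27%), CCGGAAG (ETS, 8.86%) or TTTTCC (NFAT, 23.4%). A match is a match of letters and was not tested as a binding site.

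All 3 genes were detected in every set. Nrp1 had 4638 UMIs in 3320 of the 10685 cells and lay at 180.3, 181.0, 150.6, 213.0, 191.1 and 180.8 CPM in sets 1 to 6. Izumo1r had 28926 UMIs in 8291 cells and lay at 1191.9, 1147.9, 1058.9, 1170.2, 1067.5 and 1189.2 CPM. Gpr83 had 1134 UMIs in 927 cells and lay at 42.6, 43.8, 42.7, 48.0, 45.0 and 46.2 CPM. Set 3 was the lowest for Nrp1 and Izumo1r. The log2 ratio of the highest to the lowest set was 0.50 for Nrp1 (interval 0.35 to 0.65), 0.17 for Izumo1r (0.11 to 0.23) and 0.17 for Gpr83 (-0.12 to 0.46), whose interval includes 0. The median of this ratio over the 2918 genes with at least 1000 UMIs was 0.33. The range of Nrp1 was larger than that of 85.3% of these genes, while that of Izumo1r was larger than that of 8.16% and that of Gpr83 than that of 7.95%.

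Single cells varied more in the 3 genes than most genes of like abundance did. With each of 9955 Treg cells thinned to 1000 UMIs, 59.5% had an Izumo1r UMI (58.5 to 60.4%), 17.5% an Nrp1 UMI (16.8 to 18.3%) and 3.97% a Gpr83 UMI (3.59 to 4.37%). Without thinning the shares were 77.9% for Izumo1r, 30.9% for Nrp1 and 8.50% for Gpr83, at a median of 2072 UMIs per cell. The share of thinned cells without an Izumo1r UMI was 40.5%, against 30.5% for a Poisson distribution of the same mean, and 334 cells (3.36%) had 5 to 10 Izumo1r UMIs. The variance of thinned UMIs divided by their mean was 1.68 for Izumo1r, with a median of 1.09 over 62 genes within 1.5-fold of its mean. It was 1.14 for Nrp1, with a median of 1.02 over 482 such genes, and 1.13 for Gpr83, with a median of 1.01 over 1991 such genes. These values exceeded those of 95.2% (Izumo1r), 94.6% (Nrp1) and 98.2% (Gpr83) of the genes of like abundance.

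Cells with B-cell markers, which should lack the 3 genes, had lower shares of Nrp1 and Izumo1r than Treg cells. Among 86 thinned cells with 4 or more B-cell markers, 17.4% had an Izumo1r UMI (10.1 to 27.1%) and 3.49% an Nrp1 UMI (0.73 to 9.86%). Gpr83 had a UMI in 0 of these 86 cells, and the exact interval reaches 4.199%, so at this depth its share in Treg cells was not separated from that in these cells. Whether the UMIs in cells with B-cell markers came from free RNA or from doublets, cells captured together, was not tested. Without thinning the shares in B-cell-marker cells were 34.8% for Izumo1r, 11.2% for Nrp1 and 3.37% for Gpr83, at a median depth of 1958 UMIs.

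Treg cells were then placed in states by the number of different state markers with a UMI among 1000, none of which is one of the 3 genes. The states were an S100a4/Ccr2 effector state (909 cells), a Ccl5/Lilrb4a state (387), a T cell receptor (TCR)-stimulated state with immediate early genes such as Nr4a1 and Egr1 (642), an interferon state (353), a follicular-like state with Cxcr5 and Bcl6 (183) and a resting state with Ccr7 and Igfbp4 (1523). A further 1407 cells passed several thresholds and 4528 passed none, here called cells of no state. Cycling markers put 19 cells and Th17 markers 4 cells in a state, too few to describe. Median depth differed, with 1960 UMIs per cell in effector, 1738 in Ccl5/Lilrb4a, 2047.5 in TCR-stimulated, 2066 in interferon, 1766 in follicular-like and 2491 in resting cells. Levels are unthinned UMIs of a gene per 1000000 UMIs of the state. A gene is called higher or lower where its level over all sets differed by at least 1.5-fold from the resting state and the direction was the same in each of the 6 sets.

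**Figure D1:**
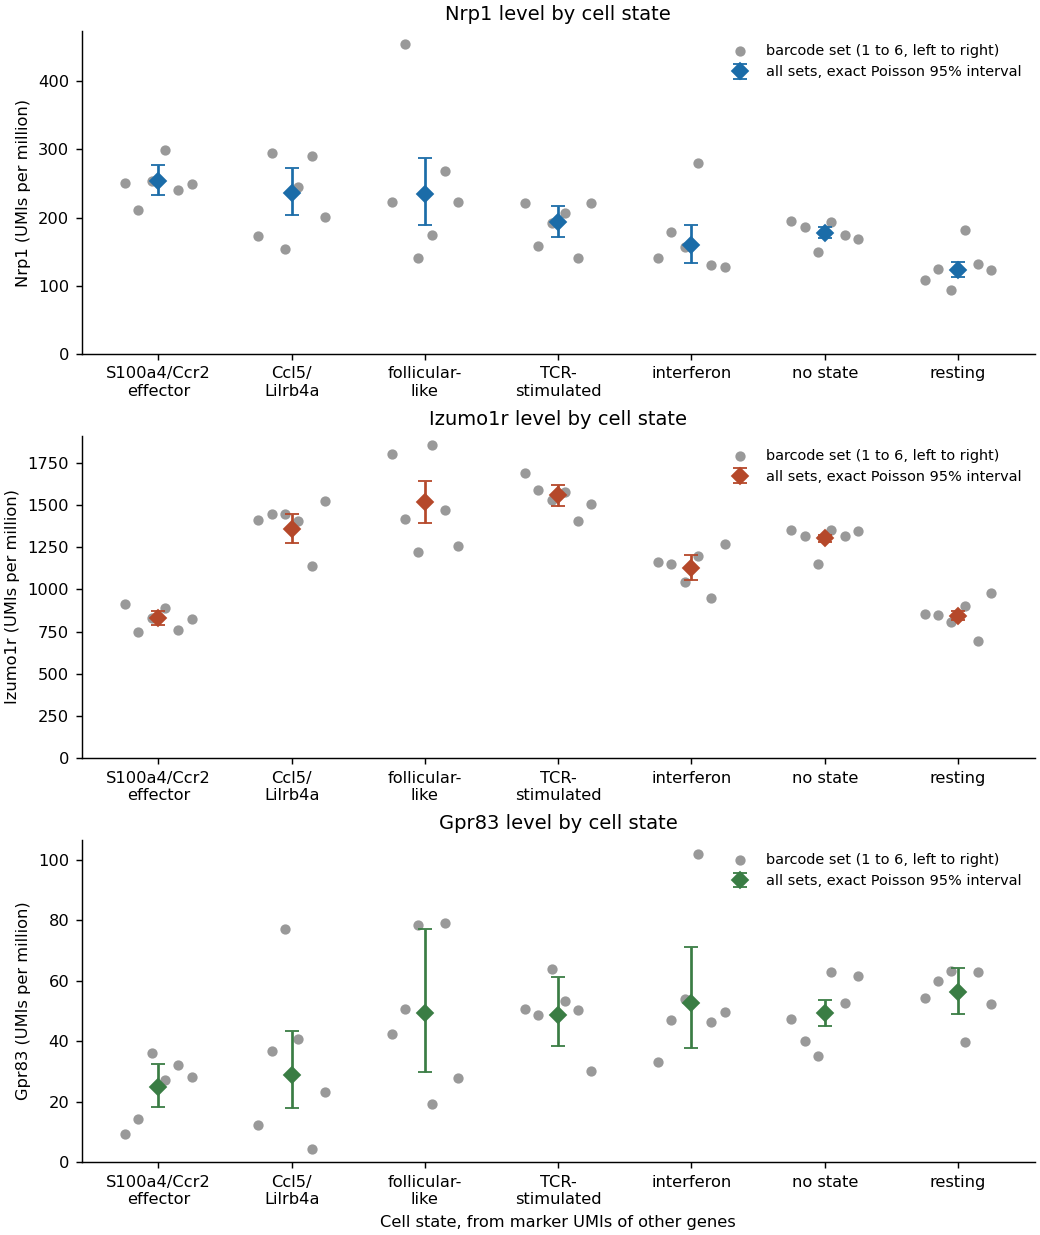
Level of Nrp1, Izumo1r and Gpr83 in CPM by cell state, with the resting state at the right. Diamonds are all sets with an exact Poisson 95% interval and grey points are sets 1 to 6 from left to right; the 6 effector points of Nrp1 lie between 211.1 and 299.6 CPM, above all resting points, and those of Gpr83 between 9.26 and 36.2 CPM, below all resting points.

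Nrp1 was higher in the effector, Ccl5/Lilrb4a, TCR-stimulated and follicular-like states than in the resting state. It lay at 249.98, 211.1, 253.4, 299.6, 241.0 and 249.3 CPM in effector cells of sets 1 to 6, against 108.6, 124.9, 94.0, 181.9, 131.6 and 122.3 CPM in resting cells. Every effector value exceeded every resting value. Over all sets the level was 253.9 CPM in effector cells and 122.9 CPM in resting cells, a log2 ratio of 1.05 (0.86 to 1.23). Among 3197 genes that are no state marker, 6.29% were called higher and 0.876% lower in this comparison. In the Ccl5/Lilrb4a state Nrp1 lay between 154.2 and 294.2 CPM over the sets, overlapping the resting cells, with a log2 ratio of 0.94 (0.69 to 1.19; 6.05% of 2511 genes called higher). In the TCR-stimulated state it lay between 140.7 and 220.9 CPM, with a log2 ratio of 0.65 (0.44 to 0.87; 7.23% of 2919 genes called higher). In the follicular-like state it lay between 141.3 and 455.3 CPM, with a log2 ratio of 0.93 (0.59 to 1.26; 5.84% of 2296 genes called higher and 1.92% lower). That last call is a narrow one, since in set 4 Nrp1 lay at 173.9 CPM in follicular-like cells and 181.9 CPM in resting cells and the direction there came from the 0.5 UMIs added to each count of a set. The interferon state had 159.1 CPM and a log2 ratio of 0.37 (0.08 to 0.66), which was not called (2.0% of 2503 genes called higher and 0.280% lower).

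Of these calls, that in the effector state was kept under all 17 other CPM settings that changed the values, with log2 ratios between 0.74 and 1.53. The Ccl5/Lilrb4a call was lost with cells thinned to 500 UMIs (0.54), the TCR-stimulated call in 5 settings and the follicular-like call in 7. The interferon ratio, not called above, was called higher in 2 of the 17 settings. These were another draw (0.69, 0.41 to 0.96) and cells thinned to 1500 UMIs (0.61, 0.33 to 0.88). On the authors' natural log values, where no fold was required, Nrp1 was higher in all 6 sets in each of these states except the follicular-like one. Cells of no state had 177.7 CPM of Nrp1. Against them the log2 ratio was 0.51 in effector cells (0.37 to 0.66, higher in 6 of 6 sets). In resting cells it was -0.53 (-0.68 to -0.39, lower in 6 of 6 sets). It was 0.41 in Ccl5/Lilrb4a cells (0.18 to 0.63) and 0.40 in follicular-like cells (0.08 to 0.70), each higher in 5 of 6 sets. TCR-stimulated cells had 0.12 (-0.06 to 0.30) and interferon cells -0.16 (-0.43 to 0.10). All of these ratios were short of 1.5-fold, and this comparison was chosen after seeing the data. Between effector and interferon cells the log2 ratio of Nrp1 was 0.67 (0.39 to 0.97; higher in 6 of 6 sets), whereas between effector and Ccl5/Lilrb4a cells it was 0.10 (-0.14 to 0.36) and between effector and follicular-like cells 0.12 (-0.21 to 0.46), so the order among the last pairs was not resolved.

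Izumo1r was higher in the TCR-stimulated, follicular-like and Ccl5/Lilrb4a states than in the resting state, and no call was made in effector cells. It lay at 1691.1, 1590.4, 1530.4, 1580.6, 1407.4 and 1506.1 CPM in TCR-stimulated cells of sets 1 to 6, against 855.5, 849.4, 807.1, 899.2, 693.4 and 978.2 CPM in resting cells. The TCR-stimulated and resting values did not overlap. The log2 ratio was 0.88 (0.80 to 0.96), from 1557.4 CPM in TCR-stimulated cells and 845.3 CPM in resting cells. In follicular-like cells Izumo1r lay between 1224.5 and 1854.6 CPM over the sets, with a log2 ratio of 0.84 (0.71 to 0.97), and in Ccl5/Lilrb4a cells between 1140.8 and 1527.0 CPM, with a log2 ratio of 0.69 (0.58 to 0.79). Neither overlapped the resting range. In effector cells Izumo1r lay at 913.5, 747.7, 828.1, 887.4, 760.4 and 824.5 CPM in sets 1 to 6, 3 above and 3 below the resting value of the same set. The log2 ratio of effector to resting cells was -0.03 (-0.11 to 0.06). It was lower, with an interval below 0, at -0.11 in another draw, -0.12 with cells thinned to 1500 UMIs, -0.29 with state thresholds at 15% of cells and -0.21 without ribosomal protein and mitochondrial UMIs, all short of 1.5-fold. On the authors' natural log values Izumo1r was lower in effector than in resting cells in all 6 sets, with a difference of means of -0.20. The interferon state had 1128.7 CPM and a log2 ratio of 0.42 (0.31 to 0.52), higher in 6 of 6 sets but short of 1.5-fold. With cells thinned to 1500 UMIs the interferon ratio was called higher (0.60, 0.51 to 0.70).

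The TCR-stimulated and follicular-like calls of Izumo1r were kept under the same 17 settings, with log2 ratios of 0.72 to 1.02 and 0.68 to 1.17. The Ccl5/Lilrb4a call was lost in 3 settings, with cells thinned to 500 UMIs (0.52), without ribosomal protein and mitochondrial UMIs (0.51) and relative to the median gene (0.53). Cells of no state had 1302.8 CPM of Izumo1r, a level that both effector and resting cells fell short of. Against cells of no state the log2 ratio was -0.65 in effector cells (-0.73 to -0.58) and -0.62 in resting cells (-0.68 to -0.57), each lower in 6 of 6 sets. It was 0.26 in TCR-stimulated cells (0.19 to 0.32, higher in 6 of 6 sets). In follicular-like cells it was 0.22 (0.10 to 0.34) and in Ccl5/Lilrb4a cells 0.06 (-0.03 to 0.15), each higher in 5 of 6 sets. Interferon cells had -0.21 (-0.31 to -0.11, lower in 6 of 6 sets). The ratios outside effector and resting cells were all short of 1.5-fold. Effector cells also had less Izumo1r than TCR-stimulated cells, with a log2 ratio of -0.91 (-0.9998 to -0.82; lower in 6 of 6 sets), and than Ccl5/Lilrb4a cells, with -0.71 (-0.83 to -0.60; lower in 6 of 6 sets). TCR-stimulated and follicular-like cells differed by a log2 ratio of 0.04 (-0.09 to 0.17), which does not order them.

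Gpr83 was lower in the effector state than in the resting state. It lay at 9.26, 14.3, 36.2, 27.2, 32.3 and 28.3 CPM in effector cells of sets 1 to 6, against 54.3, 59.8, 63.1, 39.7, 62.9 and 52.4 CPM in resting cells. Every effector value was below every resting value. The log2 ratio was -1.18 (-1.66 to -0.73), from 50 UMIs or 24.7 CPM in effector cells and 217 UMIs or 56.2 CPM in resting cells. This was a call of a kind made for 0.876% of genes, as given above, and it was kept under the same 17 settings with log2 ratios between -1.81 and -0.82. The Ccl5/Lilrb4a state had 28.7 CPM and a log2 ratio of -0.97 (-1.67 to -0.33; 1.39% of genes called lower), but only 22 UMIs, and its sets ran from 4.47 to 77.1 CPM with 4 of 6 below resting. No call was made there. With cells past several thresholds counted in each state, Gpr83 was called lower in Ccl5/Lilrb4a cells (-1.21, -1.72 to -0.73). The 1407 cells past several thresholds had 30.9 CPM of Gpr83, from 105 UMIs. TCR-stimulated cells had 48.8 CPM (log2 ratio -0.20, -0.60 to 0.18), interferon cells 52.6 CPM (-0.09, -0.61 to 0.39), follicular-like cells 49.4 CPM (-0.18, -0.94 to 0.49) and cells of no state 49.2 CPM, and the intervals of these ratios all include 0. Effector cells also had less Gpr83 than TCR-stimulated cells, with a log2 ratio of -0.98 (-1.53 to -0.45; lower in 6 of 6 sets), and than interferon cells, with -1.09 (-1.71 to -0.46; lower in 6 of 6 sets). Against cells of no state the effector ratio was -0.99 (-1.44 to -0.57), lower in 5 of 6 sets, so no call was made.

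The median gene did not lie at 0 between states. Its log2 ratio to resting was 0.19 in effector, 0.15 in Ccl5/Lilrb4a, 0.16 in TCR-stimulated, 0.04 in interferon and 0.16 in follicular-like cells. Relative to it, the effector ratio was 0.86 for Nrp1, -0.22 for Izumo1r and -1.37 for Gpr83, and the TCR-stimulated ratio was 0.50 for Nrp1, which was then no longer called, and 0.72 for Izumo1r. In effector cells Nrp1 was thus called higher, Gpr83 lower and Izumo1r neither, with either scaling. Markers of other cell types were rare in each state. The 7 measured B-cell markers summed to 0.00498 to 0.00802% of UMIs over the sets in effector cells and 0.00295 to 0.00621% in resting cells, with 1 marker at 0 in effector cells and none in resting cells. The 6 CD8 and NK markers summed to 0.00498 to 0.0151% in effector cells, with 2 at 0, and 0.00416 to 0.00757% in resting cells, with 3 at 0. The 12 myeloid markers summed to 0.0281 to 0.0399% in effector cells and 0.0222 to 0.0305% in resting cells, with 1 at 0 in each. The part of these cells in the ratios was not tested, beyond the setting without cells that had any Lyz2, Cd79a, Hbb-bs or Cd8a UMI.

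Other Treg surface genes also differed between states. Over all genes too, more were called higher than lower in each state, so this direction is not particular to the list. Of 16 measured genes of a list of 32 Treg surface genes, 2 were called higher and 0 lower in effector cells (6.29% and 0.876% over all genes), with a median log2 ratio of 0.25 against 0.19 over all genes. These 2 were Icos, a costimulatory receptor, at 173.2 CPM in effector and 58.5 CPM in resting cells (log2 ratio 1.57), and Tnfrsf18, which encodes the receptor GITR, at 619.6 CPM in effector and 378.9 CPM in resting cells (0.71). In TCR-stimulated cells 6 of the 16 were called higher and 1 lower (7.23% and 3.01% over all genes), with a median of 0.50 against 0.16 over all genes. Tnfrsf4, which encodes OX40, lay at 1480.0 CPM in TCR-stimulated and 395.8 CPM in resting cells (1.90), and the tetraspanin gene Cd81 at 459.7 CPM in TCR-stimulated and 118.5 CPM in resting cells (1.96). Cd200, the gene of an inhibitory ligand, lay at 230.5 CPM in TCR-stimulated and 93.4 CPM in resting cells (1.30), and Ly6a, which encodes Sca-1, was called lower at 115.9 CPM in TCR-stimulated and 269.7 CPM in resting cells (-1.22). Of the Treg transcription factors listed, 2 of 9 measured were called higher and 1 lower in effector cells, with a median of 0.30, and 3 of 10 higher and 4 lower in TCR-stimulated cells, with a median of -0.02. Ikzf2 was called higher in effector cells (1211.1 CPM, against 621.2 CPM in resting cells, 0.96) and in TCR-stimulated cells (1225.4 CPM, 0.98). So was Gata3 (1.36 in effector and 1.21 in TCR-stimulated cells), whereas the gene of the quiescence factor Foxp1 was called lower in both (-0.91 in effector and -0.65 in TCR-stimulated cells). The others called in TCR-stimulated cells were Nfatc1 (0.97), Ikzf1 (-0.74), Foxo1 (-0.72) and Bach2 (-0.63).

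The lists of the pathways of Nrp1, Izumo1r and Gpr83 had few measured members, and their counts stand beside 6.29% higher and 0.876% lower over all genes in effector cells and 7.23% and 3.01% in TCR-stimulated cells. Of 40 listed ligands, coreceptors and partners of neuropilin, 6 were measured in effector cells and 0 were called, with a median log2 ratio of 0.16 against 0.19 over all genes. In TCR-stimulated cells 1 of 6, Tgfb1, was called higher, at 295.6 CPM against 167.5 CPM in resting cells (0.82), and 0 were called lower. Its product, latent transforming growth factor beta, is a reported ligand of neuropilin-1. Of 26 listed genes of folate and one-carbon metabolism, 6 were measured and 0 called in effector cells, and 1 of 4 was called higher and 0 lower in TCR-stimulated cells. That gene was Fam162a (143.2 CPM in TCR-stimulated and 63.4 CPM in resting cells, 1.18), which is not itself a folate enzyme. Of 33 G protein-coupled receptor and signalling genes listed with Gpr83, 12 were measured in effector cells, where 2 were called higher and 0 lower, S1pr4, a sphingosine 1-phosphate receptor gene (228.7 CPM in effector and 127.6 CPM in resting cells, 0.84), and Ptger4, a prostaglandin E2 receptor gene (55.4 CPM in effector and 27.4 CPM in resting cells, 1.01). In TCR-stimulated cells 3 of 13 were called higher and 0 lower, Gpr183 (1.05), Ptger2 (1.33) and Ptger4 (1.30). Of 23 listed anergy genes 10 were measured, of which 1 was called higher (Tox, 0.78) and 0 lower in effector cells. In TCR-stimulated cells 3 of the 10 were called higher, Tox (1.32), Nfatc1 (0.97) and Sh2d2a (0.86), and 3 lower, Dgka (-0.79), Ikzf1 (-0.74) and Ms4a4b (-0.89). Gpr83 itself, called lower in effector cells, is not counted in the receptor list.

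Helios and neuropilin-1 are read together in mouse Treg cells, and Nrp1 was higher in cells with an Ikzf2 UMI among 1000. It lay at 217.7 CPM in the 5922 cells with Ikzf2 (186.6 to 234.5 CPM over the sets) and 140.6 CPM in the 4033 cells without (111.5 to 189.0 CPM). The log2 ratio was 0.63 (0.54 to 0.72; higher in 6 of 6 sets), although the ranges over sets overlapped slightly. With 0, 1 and 2 or more Ikzf2 UMIs, Nrp1 lay at 140.6, 202.3 and 234.0 CPM, and median depth at 2381, 2086 and 1832 UMIs per cell. Izumo1r lay at 1252.9 CPM in cells with Ikzf2 and 1027.7 CPM in cells without, a log2 ratio of 0.29 (0.25 to 0.32; higher in 6 of 6 sets) that is under 1.5-fold. Gpr83 lay at 43.3 CPM in cells with Ikzf2 and 47.3 CPM in cells without, a log2 ratio of -0.13 (-0.30 to 0.05).

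The ratio of Nrp1 by Ikzf2 held within resting cells and was small within effector cells. Among resting cells it was 0.86 (0.59 to 1.12; higher in 6 of 6 sets), among cells of no state 0.57 (0.43 to 0.70; 6 of 6), and among TCR-stimulated cells 0.79 (0.40 to 1.20; 5 of 6). Among effector cells it was 0.22 (-0.06 to 0.50; 5 of 6) and among Ccl5/Lilrb4a cells -0.15 (-0.63 to 0.36; 2 of 6). The intervals of the resting and the effector ratio do not overlap, and the difference between them was not tested. For Izumo1r the ratio was 0.30 in resting cells (0.20 to 0.40) and 0.29 in effector cells (0.14 to 0.45).

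**Figure D2:**
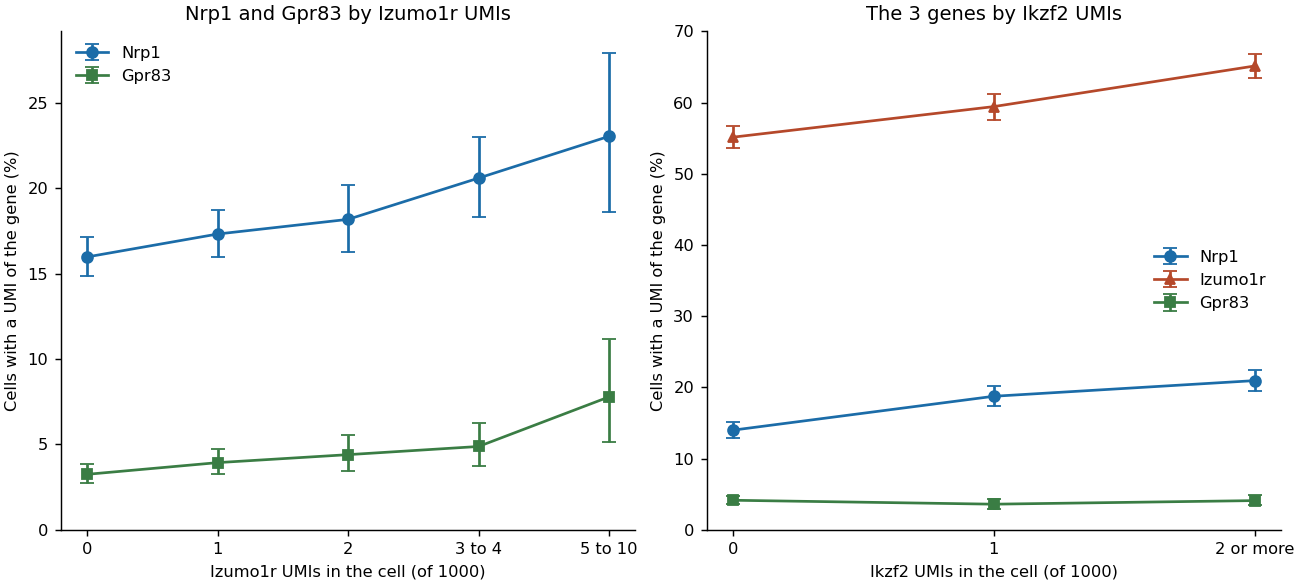
Share of Treg cells, each thinned to 1000 UMIs, with a UMI of the named gene, by the Izumo1r UMIs of the cell (left) and by its Ikzf2 UMIs (right), in percent with exact binomial 95% intervals. The share with Nrp1 lay between 16.0% at 0 and 23.1% at 5 to 10 Izumo1r UMIs and that with Gpr83 between 3.25% and 7.78%, while over the Ikzf2 classes Gpr83 lay between 3.59% and 4.14%.

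In single cells, Izumo1r was detected somewhat more often where Nrp1 or Gpr83 was detected, and for Nrp1 and Gpr83 the interval of the odds ratio includes 1. Of 1742 thinned cells with an Nrp1 UMI, 63.0% also had an Izumo1r UMI (60.7 to 65.2%), against 58.7% of the 8213 cells without (57.7 to 59.8%). The odds ratio was 1.20 (1.07 to 1.33). The difference was 11.3 percentage points in set 1 and 4.27, 3.18, 1.99, 0.97 and 2.45 points in sets 2 to 6, positive in all 6 sets, and without set 1 the log2 odds ratio was 0.17 (-0.004 to 0.34, an interval that includes 0) in place of 0.26. Of 395 cells with a Gpr83 UMI, 66.8% had an Izumo1r UMI (62.0 to 71.5%), against 59.2% of the 9560 cells without (58.2 to 60.2%), an odds ratio of 1.39 (1.12 to 1.74). This difference was positive in 5 of 6 sets, between 7.74 and 11.95 points, and -0.19 points in set 5. Of the same 395 cells, 16.2% had an Nrp1 UMI (12.7 to 20.2%), against 17.6% of those without Gpr83 (16.8 to 18.3%), an odds ratio of 0.91 (0.68 to 1.20).

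The shares with Nrp1 and with Gpr83 were larger in cells with more Izumo1r UMIs. In cells with 0, 1, 2, 3 to 4 and 5 to 10 Izumo1r UMIs, the share with Nrp1 was 16.0, 17.3, 18.2, 20.6 and 23.1%. The share with Gpr83 was 3.25, 3.93, 4.399, 4.88 and 7.78% in the same classes, and the share with Ikzf2 was 55.2, 59.9, 62.4, 67.5 and 66.5%. The highest class held 334 cells, and its interval was 18.6 to 27.9% for Nrp1 and 5.15 to 11.2% for Gpr83. All 3 genes had a UMI in 49 thinned cells, where the product of the 3 shares gives 41.1 cells, and 3274 cells (32.9%) had none of the 3. At full depth 261 of 10263 Treg cells had all 3.

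**Figure D3:**
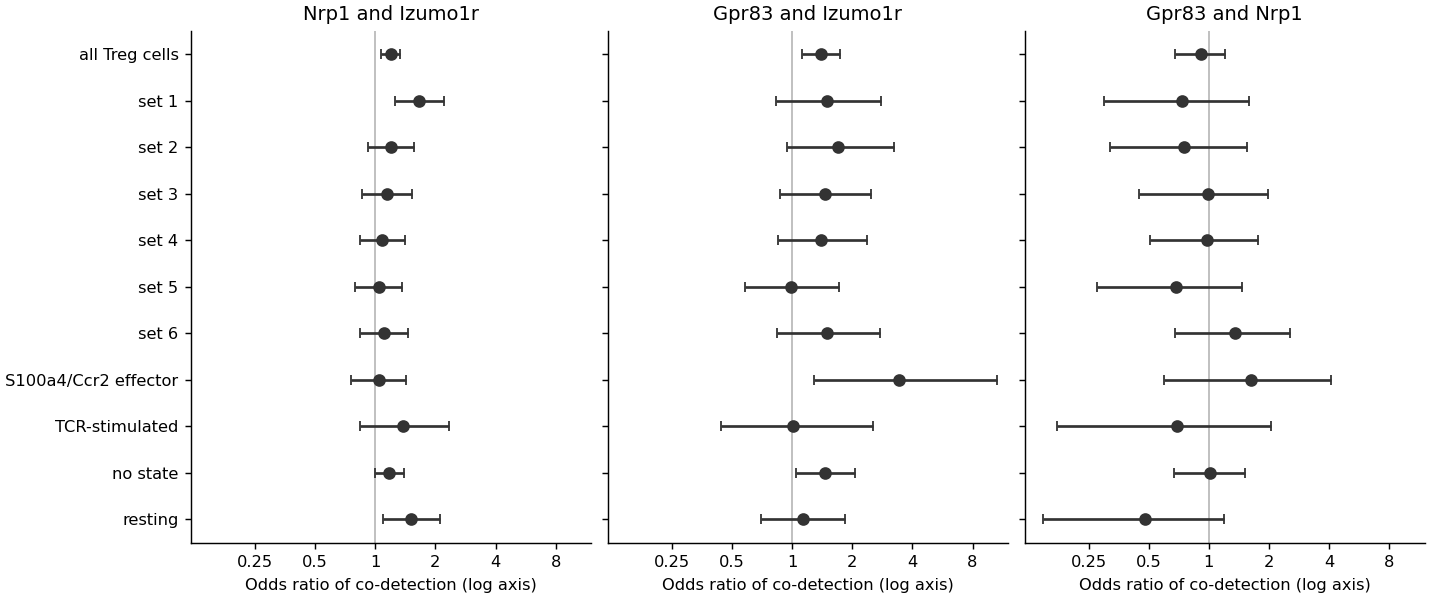
Odds ratio of finding a UMI of both genes in a thinned Treg cell, on a log axis, for the 3 pairs of genes, over all Treg cells, in each set and in 4 classes of cells, with exact conditional 95% intervals. Over all cells Nrp1 and Izumo1r had 1.20, Gpr83 and Izumo1r 1.39, and Gpr83 and Nrp1 0.91, with an interval that includes 1.

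Within states the pairs varied. Nrp1 and Izumo1r had an odds ratio of 1.52 in resting cells (1.10 to 2.11), where 59.9% of cells with Nrp1 and 49.6% of those without had Izumo1r. It was 1.04 in effector cells (0.76 to 1.43), 1.38 in TCR-stimulated cells (0.84 to 2.34) and 1.18 in cells of no state (0.997 to 1.40). In interferon cells 41 of 49 cells with Nrp1 had Izumo1r (83.7%), against 57.2% of those without, an odds ratio of 3.82 (1.69 to 9.75). Gpr83 and Izumo1r had an odds ratio of 3.42 in effector cells (1.29 to 10.6), from 18 of 24 cells with Gpr83 (75.0%) against 46.7% of those without, and 1.46 in cells of no state (1.05 to 2.08), but 1.13 in resting cells (0.70 to 1.83) and 1.01 in TCR-stimulated cells (0.44 to 2.54). The differences between states were not tested. Among cells with Ikzf2, Nrp1 and Izumo1r had an odds ratio of 1.09 (0.96 to 1.253), and among cells without Ikzf2 1.30 (1.08 to 1.57).

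Few genes differed by 1.5-fold between cells with and without a UMI of one of the 3, counted in thinned UMIs over 3678 genes. By Nrp1, 9 genes (0.245%) were called higher and 10 (0.272%) lower. The highest was Itgb1, the gene of the integrin beta 1 chain, at 335.8 CPM in cells with Nrp1 and 183.7 CPM in cells without (log2 ratio 0.87, 0.73 to 1.01; higher in 6 of 6 sets). Gpm6b (0.80), Tmem251 (0.68), Rab11fip2 (0.65) and Cdkn2c (0.63) followed. The lowest were Igfbp4 (-1.62, -2.13 to -1.15), Ly6c1 (-1.24), Satb1 (-0.94), the gene of a chromatin organiser of T cells, the kinase gene Txk (-0.80) and Nfkbil1 (-0.78). Igfbp4, Ly6c1 and Satb1 are also markers of the resting state and Itgb1 of the effector state. In another random draw of 1000 UMIs per cell, 3 of the 9 higher genes (Itgb1, Rab11fip2 and S100a4) and 4 of the 10 lower genes (Igfbp4, Ly6c1, Satb1 and Txk) were called again, out of 12 and 5 calls in that draw, where Nfkbil1 had the opposite sign (0.19). Pdcd1, the gene of the inhibitory receptor PD-1, was called higher (124.6 CPM with and 81.2 CPM without Nrp1, 0.62) among 25 measured Treg surface genes, whose median log2 ratio was 0.13 against 0.04 over all genes. Izumo1r (0.21), Gpr83 (-0.16) and Ikzf2 (0.30) were not called by Nrp1.

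By Izumo1r, 20 genes (0.544%) were called higher and 13 (0.353%) lower. The highest was Lag3, the gene of an inhibitory receptor that binds MHC class II, at 57.3 CPM in cells with Izumo1r and 25.3 CPM in cells without (1.18, 0.86 to 1.51; higher in 6 of 6 sets). It was followed by Dnah7a (0.96), Cst7, which encodes the protease inhibitor cystatin F (201.0 CPM with and 107.1 CPM without Izumo1r, 0.91), Ptger2 (0.79) and Cd200 (138.3 CPM with and 81.5 CPM without Izumo1r, 0.76). The lowest were S100a4 (102.9 CPM with and 271.9 CPM without Izumo1r, -1.40), Ly6c1 (-1.27), Cd7 (-0.93), Crip1 (969.6 CPM with and 1806.2 CPM without Izumo1r, -0.90) and Klf2, the gene of a quiescence factor (396.5 CPM with and 737.1 CPM without Izumo1r, -0.89). The lowest genes thus included both effector markers (S100a4, Crip1) and resting markers (Ly6c1, Klf2). In both of these states Izumo1r was at least 1.5-fold below cells of no state. Another draw called 13 of the 20 higher and 12 of the 13 lower genes again, out of 21 and 16 calls, and among the 5 highest and 5 lowest all were called again. Among 25 Treg surface genes, 3 were called higher, Lag3, Cd200 and Lrrc32 (54.9 CPM with and 34.2 CPM without Izumo1r, 0.68), whose product GARP presents latent transforming growth factor beta and which was not called again in the other draw, and 0 lower, with a median of 0.21 against 0.01 over all genes. Of 13 measured anergy genes, 1, Lag3, was called higher, and 0 of 6 folate and one-carbon genes were called in either direction. Nrp1 (0.24), Gpr83 (0.40) and Ikzf2 (0.32) were not called by Izumo1r.

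By Gpr83, 28 genes (0.761%) were called higher and 26 (0.707%) lower, with 395 cells that had a Gpr83 UMI. Leaving out each set in turn gave 38 to 44 lower genes in place of 26. The direction then had to be the same in fewer sets, which is a looser rule than the one behind the 26. Of the higher genes 3 (Chchd10, Cyth1 and Rbm33) and of the lower genes 4 (Ccl5, Itgb1, S100a4 and S100a6) were called again, out of 23 and 21 calls in another draw. Chchd10, the gene of a mitochondrial protein, lay at 182.3 CPM in cells with Gpr83 and 98.7 CPM in cells without (0.88, 0.52 to 1.23), and S100a4 at 55.7 CPM with and 176.2 CPM without Gpr83 (-1.66, -2.34 to -1.06). Cnih4 (0.92), Ptpn2 (0.89), Rbm33 (0.80) and Gm10320 (0.80) completed the 5 highest, and Asna1 (-1.95), Nudcd2 (-1.41), Bhlhe40 (-1.39) and Nup153 (-1.35) the 5 lowest. Asna1, Nudcd2, Bhlhe40 and Nup153 had only 4, 5, 6 and 5 UMIs in cells with Gpr83. Ptpn2 and Bhlhe40 had the opposite sign in the other draw (-0.68 and 0.27). In that draw Cnih4 had 0.21, Gm10320 0.03, Asna1 -0.40, Nudcd2 -0.29 and Nup153 -1.08, none of them called, while Rbm33 had 0.68. Of 19 receptor and signalling genes 1 was called higher and 0 lower. It was Ccr7, the gene of the lymph node homing receptor (197.5 CPM with and 126.6 CPM without Gpr83, 0.64, 0.29 to 0.97). Ccr7 is also a marker of the resting state and was not called again in the other draw. Itgb1, a marker of the effector state, was called lower among 7 neuropilin partners (141.8 CPM with and 213.2 CPM without Gpr83, -0.59). Itgb1 was thus higher in cells with Nrp1 and lower in cells with Gpr83, each in 6 of 6 sets.

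Across 38 sums of a state and set with at least 50 cells, the levels of the 3 genes followed different genes. These correlations of log2(CPM + 10) over 4628 genes describe points that share sets, depth and the choice of states. Nrp1 was most like Icos (Pearson r 0.82), S100a11 (0.81), Capg, the gene of an actin-capping protein (0.80), Gnb2 (0.78) and Mif4gd (0.77). Izumo1r was most like Tbc1d4, the gene of a GTPase-activating protein of vesicle traffic (0.88), Cst7 (0.84), Nrip1 (0.77), 2310001H17Rik (0.76) and Bmyc (0.76). Gpr83 was most like Vkorc1 (0.66), Chchd10 (0.63), Rgs10 (0.62), Cyth3 (0.61) and Rps26 (0.60). Among the 3 genes r was -0.61 for Nrp1 and Gpr83, 0.08 for Nrp1 and Izumo1r and 0.27 for Izumo1r and Gpr83.

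**Figure D4:**
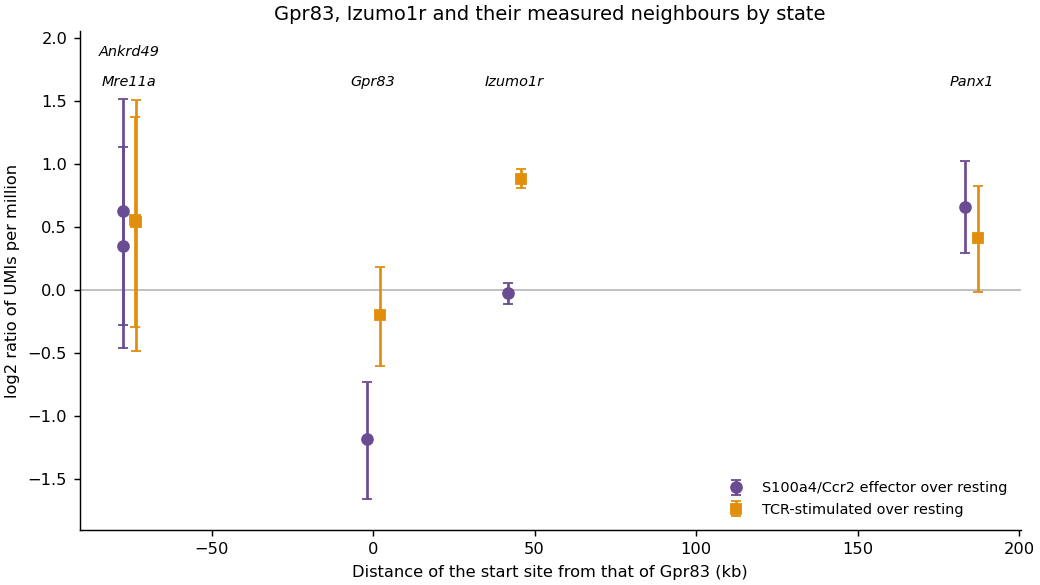
Log2 ratio of CPM to resting cells, with exact 95% intervals, for Gpr83 and the measured genes within 200 kb of its ends, by the distance of their start sites from that of Gpr83 in kb. Circles are effector and squares TCR-stimulated cells; in effector cells Gpr83 lies at -1.18 and Izumo1r at -0.03, and in TCR-stimulated cells Izumo1r lies at 0.88.

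Of the neighbours of Gpr83 on the chromosome, Izumo1r and Panx1 had the 200 UMIs that the comparison by state required, and neither was called lower in effector cells. The nearest, Izumo1r, had a log2 ratio of -0.03 in effector cells, where Gpr83 had -1.18. Panx1, which encodes a membrane channel and starts 185.3 kb from Gpr83, lay at 47.3 CPM in Treg cells, with log2 ratios of 0.66 in effector cells (0.29 to 1.02; 5 of 6 sets) and 0.41 in TCR-stimulated cells (-0.01 to 0.82; 4 of 6 sets). Ankrd49 (8.37 CPM) and the DNA repair gene Mre11a (10.9 CPM), on the other side, had effector ratios of 0.63 (-0.28 to 1.51) and 0.35 (-0.46 to 1.14), from 47 and 60 UMIs in effector and resting cells together, too few for a call. Panx1 was not called in either comparison. Fut4 and Piwil4 had 1 and 2 UMIs.

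Itgb1 is the only measured gene within 200 kb of Nrp1, counted between the nearest gene ends, with start sites 327.1 kb apart on the same strand, and it was also the gene with the highest ratio in cells with Nrp1. Over thinned Treg cells 24.6% of cells with Nrp1 had an Itgb1 UMI (22.6 to 26.7%), against 14.9% of cells without (14.1 to 15.7%), higher in 6 of 6 sets. Itgb1 is a marker of the effector state, and the shares were also taken within states, a comparison chosen after seeing the data. An Itgb1 UMI itself counts towards the effector threshold in the same thinned cells. The shares within states therefore depend in part on how the states were set and do not remove this dependence. Among resting cells they were 17.0% with Nrp1 (11.9 to 23.3%) and 7.16% without (5.84 to 8.67%), and among cells of no state 15.4% with Nrp1 (12.9 to 18.2%) and 9.58% without (8.66 to 10.6%), each higher in 6 of 6 sets. Among effector cells they were 53.7% with Nrp1 (46.8 to 60.5%) and 47.0% without (43.3 to 50.8%), higher in 4 of 6 sets. Among TCR-stimulated cells they were 13.9% with Nrp1 (7.99 to 21.9%) and 10.7% without (8.19 to 13.6%), also higher in 4 of 6 sets. Itgb1 encodes an adhesion receptor chain that is a reported partner of neuropilin-1.

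Bach2, the gene targeted in the cKO group, was detected in few cells, so its relation to the 3 genes is given as levels only. In 251 thinned cells with a Bach2 UMI and 9704 without, Nrp1 lay at 140.4 CPM with and 184.7 CPM without Bach2 (log2 ratio -0.40, -0.72 to -0.09; lower in 6 of 6 sets). Izumo1r lay at 966.9 CPM with and 1158.0 CPM without Bach2 (-0.26, -0.38 to -0.14; lower in 5 of 6 sets) and Gpr83 at 60.6 CPM with and 44.7 CPM without (0.44, -0.07 to 0.91; higher in 5 of 6 sets). None of these ratios reached 1.5-fold. They were taken over all states and sets together, and the parts of cell state and genotype in them were not tested. Bach2 itself was called lower in TCR-stimulated cells, at 28.6 CPM against 44.3 CPM in resting cells (-0.63; 3.01% of genes called lower).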

How the data were processed

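Total CD4 T cells were enriched, sorted and made into Chromium 3′ libraries per the labels' protocols, and the submitters' processing notes name mm10, FastQC, cutadapt, HISAT2, Cell Ranger and Seurat without versions or order. The authors deposited whole UMI counts per gene and cell, the unit used for every level, and a natural log table of 10464 cells, whose deposited values equal ln(1 + 10000 × count / cell total) within 1e-06 and served as an alternative. No cell column could be tied to a sample, 63 barcodes occurred in more than 1 set, and 0 columns of per-sample values were left unused. Doublets were not called.

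Cells counted as Treg cells with under 2 B-cell, under 3 myeloid and under 2 CD8 or NK markers and under 10% erythroid UMIs. Each was thinned to 1000 UMIs (seed 1; 308 shallower cells left out). A state's threshold was the smallest number of detected markers, at least 2, that at most 25% of cells reached. It was 3 for the resting and effector states and 2 for the others. Levels were summed counts per 1000000 UMIs (CPM) with exact Poisson intervals, shares had exact Clopper-Pearson intervals, and ratios exact conditional binomial intervals. For the ratio within a set, 0.5 UMIs were added to each count. Genes needed 300 thinned UMIs for the comparison by detection and 200 UMIs for that by state. No p-value was computed, since cells are not replicates. The code was tested on simulated data.

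Named genes were, for each of the 3, the 5 highest and 5 lowest called genes by detection, the 5 most correlated genes (at least 500 UMIs, state markers left out), up to 4 members of each list, measured genes within 200 kb, and Bach2, Foxp3 and Ikzf2. List genes named for their ratio by state were chosen after their values were seen. One list gene called by detection is not reported here. The members, markers and lists were chosen with earlier results of these data known. Gene positions are from GENCODE vM21, promoters from RefSeq (GRCm38.p6). Tools were Python 3.11.15, numpy 2.4.6, pandas 2.3.3, scipy 1.17.1 and matplotlib 3.10.9.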

Additional observations from a re-analysis of the deposited data

How the results depend on the processing

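No paired analysis was possible because the cell columns are tied to no sample and so carry no replicate number of a group. States were compared within each of the 6 sets, and with the mean of the sets' log2 ratios each state value stayed within its main interval. The limits are UMIs per gene (Gpr83 had 50 in effector cells), cells in the small states and the random draw. Of 455 values under the main and other settings, 347 stayed within the main interval or 1.5 times the main count, 77 moved beyond it and 0 called ratios changed sign. State thresholds at 35% of cells gave the same states, so 15 of those values were the main ones and tested nothing. The values also include differences of means on the authors' natural log scale, set against main intervals of log2 ratios. For these differences the labels of staying or moving compare unlike scales. The causes of the other moves were not tested. Values below are log2 ratios to resting cells unless named otherwise.

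Thinned to 500 UMIs, Nrp1 had 0.86 in effector, 0.54 in Ccl5/Lilrb4a and 0.026 in interferon cells, Izumo1r 0.52 in Ccl5/Lilrb4a cells, and Gpr83 0.25 in TCR-stimulated, -0.79 in interferon and -2.21 in follicular-like cells. There the ratio by Ikzf2 was 0.47 for Nrp1, 0.22 for Izumo1r and 0.11 for Gpr83, and the log2 odds ratio of Gpr83 was 0.82 with Izumo1r and -0.84 with Nrp1. Thinned to 1500 UMIs, Nrp1 had 1.53 in effector, 1.23 in Ccl5/Lilrb4a and 0.998 in TCR-stimulated cells, Izumo1r -0.12 in effector, 0.81 in Ccl5/Lilrb4a, 0.60 in interferon and 1.17 in follicular-like cells and 0.33 by Ikzf2, and Gpr83 -0.67 in interferon cells. Another draw gave Nrp1 0.95 in TCR-stimulated and 0.69 in interferon cells, Izumo1r -0.11 in effector cells and 5 genes lower with Nrp1. Thresholds at 15% of cells gave Nrp1 1.39 in effector and 0.87 in TCR-stimulated cells, Izumo1r -0.29 in effector, 1.02 in TCR-stimulated, 0.54 in interferon and 0.98 in follicular-like cells, and Gpr83 -1.81 in effector cells. Counting cells of several states in each gave Nrp1 0.74 in effector, 0.65 in Ccl5/Lilrb4a and 0.58 in follicular-like cells. Without ribosomal protein and mitochondrial UMIs, Nrp1 had 0.86 in effector cells and Izumo1r -0.21 in effector, 0.51 in Ccl5/Lilrb4a, 0.74 in TCR-stimulated and 0.68 in follicular-like cells. Relative to the median gene, a setting chosen after seeing the data, the values were 0.86 for Nrp1 in effector cells and -0.22, 0.53, 0.72 and 0.68 for Izumo1r in effector, Ccl5/Lilrb4a, TCR-stimulated and follicular-like cells. On the authors' natural log scale, where differences of means are not log2 ratios, Nrp1 differed by 0.34 in effector, 0.27 in Ccl5/Lilrb4a, 0.19 in TCR-stimulated and 0.29 in follicular-like cells, Izumo1r by -0.20 in effector, 0.40 in Ccl5/Lilrb4a, 0.75 in TCR-stimulated and 0.27 in interferon cells, and Gpr83 by -0.10 in effector and -0.095 in Ccl5/Lilrb4a cells.

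The counts of genes by detection depended on the fold and the minimum. At the smaller fold tried, 89 genes were higher and 24 lower with Nrp1, 91 higher and 71 lower with Izumo1r and 91 higher with Gpr83. At 2-fold, 0 were higher and 2 lower with Nrp1, 1 higher and 2 lower with Izumo1r and 0 higher and 13 lower with Gpr83. With 100 or more thinned UMIs, 45 were higher and 32 lower with Nrp1, 68 and 38 with Izumo1r and 111 and 41 with Gpr83. Leaving out each set in turn, the count of genes higher with Nrp1 ran from 7 to 14 (14 without set 4) and that lower with Gpr83 from 38 to 44 in place of 26, with 40 without set 1, 44 without set 2, 41 without set 3 and 40 without set 5. With a set left out the direction had to be the same in fewer sets, a looser rule, and its part in these counts was not tested. Leaving out set 1 or set 3 ended the Nrp1 call in TCR-stimulated cells.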
